A study of Mus musculus with 70 samples.

Results

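The endocannabinoid signalling genes described here were Cnr1, Dagla, Daglb, Mgll, Faah and Napepld, which are 6 of the 34677 genes in the gene-level expression table of the series. They were chosen by name as the receptor and the main enzymes of the pathway, with earlier results of these data known. Expression was given as TPM, the abundance of a transcript after division by its length and by the total of its library, so levels of different genes can be set side by side. All 6 genes passed the filter on low counts and were tested in every comparison.

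The series is an RNA-Seq atlas of the mouse brain with 70 libraries in 24 groups, made to describe regions that control energy balance. Adult tissue came from male C57BL/6NTac mice at P56 and gave 57 libraries from 18 regions. Embryonic tissue came from C57BL/6NTac embryos at E14.5 and gave 9 libraries from 4 regions. The remaining 4 libraries came from mouse embryonic stem cells (mESCs), 2 for each of the C57BL/6 lines B6-1 and B6-2, which are each 1 clone. No brain group was treated, and no group carried a transgene. Before RNA collection the mESCs were grown in medium with leukemia inhibitory factor and added small-molecule inhibitors. The cortical regions were the anterior cingulate area (ACA), the frontal pole cortex (FRP) and the entorhinal area (ENT), and the reward regions were the nucleus accumbens (ACB) and the ventral tegmental area (VTA). The hypothalamic nuclei were the arcuate (ARH), dorsomedial (DMH), paraventricular (PVH) and ventromedial (VMH) nuclei and the lateral hypothalamic area (LHA). The hindbrain nuclei were the dorsal-vagal complex (DVC), the nucleus of the solitary tract (NTS) and the parabrachial nucleus (PB). The cerebellum was sampled at its nuclei (CBN) and at 4 places in its cortex, namely central lobule II (CENT2), the culmen (CUL4-5), the flocculus (FL) and the uvula (UVU). The embryonic regions were forebrain (F), hindbrain (H), midbrain (M) and the terminal with the peduncular hypothalamus (THy-PHy). Groups held 2 to 4 libraries except F, which had 1, so F entered none of the fitted contrasts, and its values have no replicate check.

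Nearly all brain libraries were pools of tissue punches from several animals, and regions were punched from a shared set of mice, so p-values measure the spread between pools. A single ACB library, which the labels do not identify, came from a single mouse. Sample batches of the 2 stages did not overlap, so stage and batch cannot be told apart. Library totals ran from 9074581 to 22229582 counts with a median of 17016935, and the lowest total was that of H 1. Mitochondrial transcripts took a median of 7.49% of TPM, but 39.6% in VTA 1 and 22.6% in H 1, so the fold changes of the 6 genes in VTA and H are given with and without these libraries. In ACB 1 the summed TPM of the glutamate neuron markers Slc17a7 and Slc17a6 was 28.7, against 266 and 301 in the other ACB libraries. Of 25 marker genes of the labelled regions and cells, 17 were highest in the group they mark. Both DMH markers were highest elsewhere, so the DMH label had no support from them.

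Endocannabinoids are lipid messengers made on demand by the postsynaptic neuron, and they act backwards across the synapse on the cannabinoid receptor CB1, encoded by Cnr1, to lower transmitter release. The messenger 2-arachidonoylglycerol (2-AG) is made by the diacylglycerol lipases Dagla and Daglb and is broken down mainly by the monoacylglycerol lipase Mgll. The messenger anandamide is an N-acylethanolamine that can be released by the phospholipase Napepld, although other routes exist, and it is broken down by the fatty acid amide hydrolase Faah. In the hypothalamus and the reward system this signalling is known for its effects on feeding. In bulk tissue, fewer cells that express a gene and less of its RNA per cell cannot be told apart.

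The receptor gene Cnr1 (ENSMUSG00000044288.6) lies on the plus strand of GRCm38 at chr4:33924593-33948831. It has 3 transcripts in the files. Cnr1-201 and Cnr1-203 start at 33924632 and 33924593 and their first exons overlap, while Cnr1-202 starts at 33926202, in the intron that follows. The stretches upstream of these starts are shown because transcripts from both places were counted and the stretches differ in base composition. The first covers chr4:33924014-33924263 and ends 368 bases before the start of Cnr1-201. The second covers chr4:33926130-33926201, directly before the start of Cnr1-202. Both are from the RefSeq promoter windows on GRCm38.p6, plus strand, with each CG in capitals.
upstream of Cnr1-201: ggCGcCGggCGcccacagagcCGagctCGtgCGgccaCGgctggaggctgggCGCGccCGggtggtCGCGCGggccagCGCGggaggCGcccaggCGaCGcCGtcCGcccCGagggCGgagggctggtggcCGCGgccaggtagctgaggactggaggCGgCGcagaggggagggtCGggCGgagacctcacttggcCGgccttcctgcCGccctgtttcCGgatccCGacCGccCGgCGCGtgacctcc
upstream of Cnr1-202: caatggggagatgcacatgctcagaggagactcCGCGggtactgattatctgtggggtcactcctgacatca
The first stretch held 36 CG in 250 bases, or 14.4 per 100 bases, with 79.2% G or C. The second held 2 CG in 72 bases, or 2.78 per 100 bases, with 54.2% G or C. Over the first 250 bases of 32851 RefSeq promoter windows the median was 6 CG, and 2.58% of windows held at least 36. Of the 6 genes, 5 had windows in the table. No chromatin or methylation data bear on these stretches here.

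The files did not settle which Cnr1 start was used where. Over the adult libraries Cnr1-201 took 9.77% to 97.3% of the Cnr1 TPM with a median of 59.1%, and Cnr1-202 took a median of 37.5% and at most 90.2%. The SD of the adult group means of the Cnr1-201 share was 13.8 percentage points, and the mean SD within groups was 21.3. Means over several libraries vary less than single libraries do, so these SDs do not decide whether regions differed. Because replicates were spread so widely, only the sum over transcripts is used below.

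**Figure D1:**
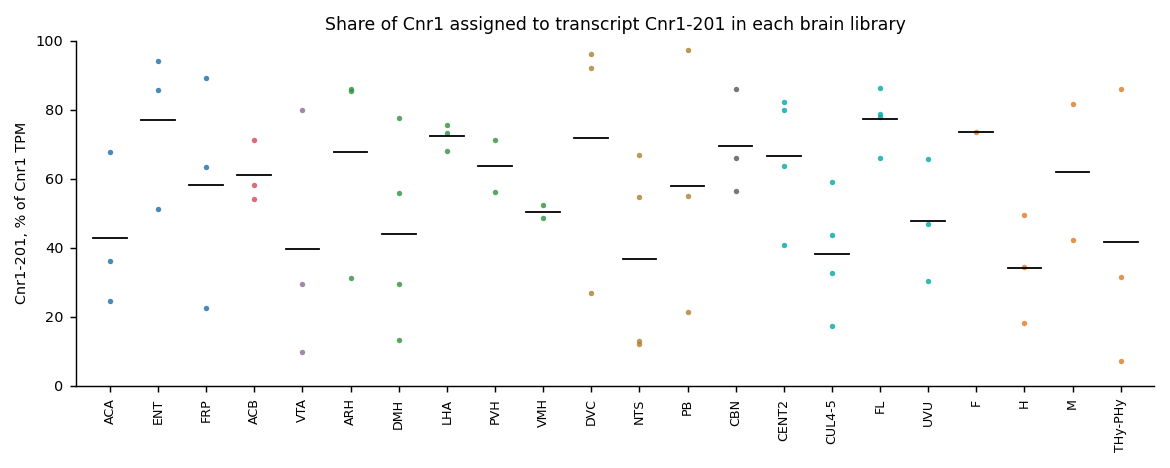
Share of the Cnr1 TPM assigned to transcript Cnr1-201 (percent) in each brain library. Points are libraries and bars are group means, for groups on the horizontal axis. Replicates of 1 region are spread widely, over 9.77% to 97.3% in the adult libraries.

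The other 5 genes are protein coding and lie elsewhere in GRCm38. Dagla (ENSMUSG00000035735.10) is at chr19:10245265-10304877 on the minus strand, and Daglb (ENSMUSG00000039206.13) at chr5:143464584-143505942 on the plus strand. Mgll (ENSMUSG00000033174.17) is at chr6:88724412-88828360 on the plus strand. Faah (ENSMUSG00000034171.13) is at chr4:115967145-116017926 on the minus strand, and Napepld (ENSMUSG00000044968.16) at chr5:21662901-21701396 on the minus strand. Dagla-201 held a median of 90.3% of the Dagla TPM in adult libraries and Daglb-201 held 94.2% of the Daglb TPM. The leading transcripts of Mgll, Faah and Napepld held medians of 63.0%, 57.2% and 65.3%.

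Among adult regions, Cnr1 transcripts were most abundant in the cerebellar cortex and the cerebral cortex and least abundant in VTA and NTS. The mean TPM was 175 ± 15.9 (SD, n = 4) in CUL4-5, 135 ± 17.6 (n = 4) in CENT2, 120 ± 4.77 (n = 3) in UVU, 93.0 ± 1.45 (n = 3) in ACA and 87.7 ± 17.8 (n = 4) in FL. ENT followed with 75.9 ± 14.1, FRP with 68.6 ± 12.7 (n = 3 each) and VMH with 56.2 ± 16.3 (n = 2). At the low end NTS had 19.5 ± 4.56 (n = 4) and VTA 13.8 ± 3.51 (n = 3). The CUL4-5 mean was 12.7 times the VTA mean, and 11.1 times without VTA 1. Only 5 of the 23 neighbouring pairs in the order of the 24 groups differed by more than the larger SD of the pair, so the order within the middle of the range was not resolved.

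Both diacylglycerol lipase genes were also highest in CUL4-5, with a smaller range than Cnr1. Dagla averaged 68.0 ± 3.46 TPM (n = 4) in CUL4-5, 57.1 ± 3.03 (n = 3) in ACA and 56.5 ± 5.38 (n = 4) in CENT2, and its highest adult mean was 4.65 times its lowest, in VTA. Without VTA 1 the lowest Dagla mean was that of CBN and the ratio 3.98. Daglb averaged 22.0 ± 1.07 TPM (n = 4) in CUL4-5, which did not differ from 21.7 ± 1.21 (n = 3) in UVU beyond the SD, and its highest adult mean was 2.47 times its lowest, in VTA, or 1.89 times without VTA 1. In every adult library Dagla made up more of the summed Dagla and Daglb TPM than Daglb did, with a share of 54.6% to 77.4%. Of the neighbouring pairs, 9 of 23 for Dagla and 6 of 23 for Daglb differed beyond their spread.

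The degrading enzymes were highest in the cerebral cortex instead. Mgll averaged 174 ± 12.2 TPM (n = 3) in FRP, 168 ± 3.09 (n = 3) in ACA and 146 ± 28.6 (n = 3) in ACB, and these neighbours did not differ beyond their SD. The FRP mean was 8.24 times the lowest adult mean, which was that of ARH. Faah averaged 64.9 ± 2.69 TPM (n = 3) in ACA, 56.6 ± 5.61 (n = 3) in FRP and 53.9 ± 3.13 (n = 3) in ENT, and its highest adult mean was 3.86 times its lowest, in VTA. Without VTA 1 the lowest Faah mean was that of ACB and the ratio 3.85. Mgll had the highest mean of the 6 genes in 12 adult regions, and Cnr1 had it in the other 6, namely ARH, VMH, CENT2, CUL4-5, FL and UVU. Neighbours differed beyond their spread in 10 of 23 pairs for Mgll and in 5 of 23 for Faah.

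Napepld followed another order and was highest in the hypothalamus. It averaged 18.1 ± 1.45 TPM (n = 2) in PVH, 13.2 ± 1.86 (n = 4) in DMH and 11.8 ± 1.19 (n = 2) in VMH, and the PVH mean was 6.11 times the lowest adult mean, in ACB. It had the lowest mean of the 6 genes in every adult region except PVH, where Daglb was lower. Of the neighbouring pairs, 7 of 23 differed beyond their spread.

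**Figure D2:**
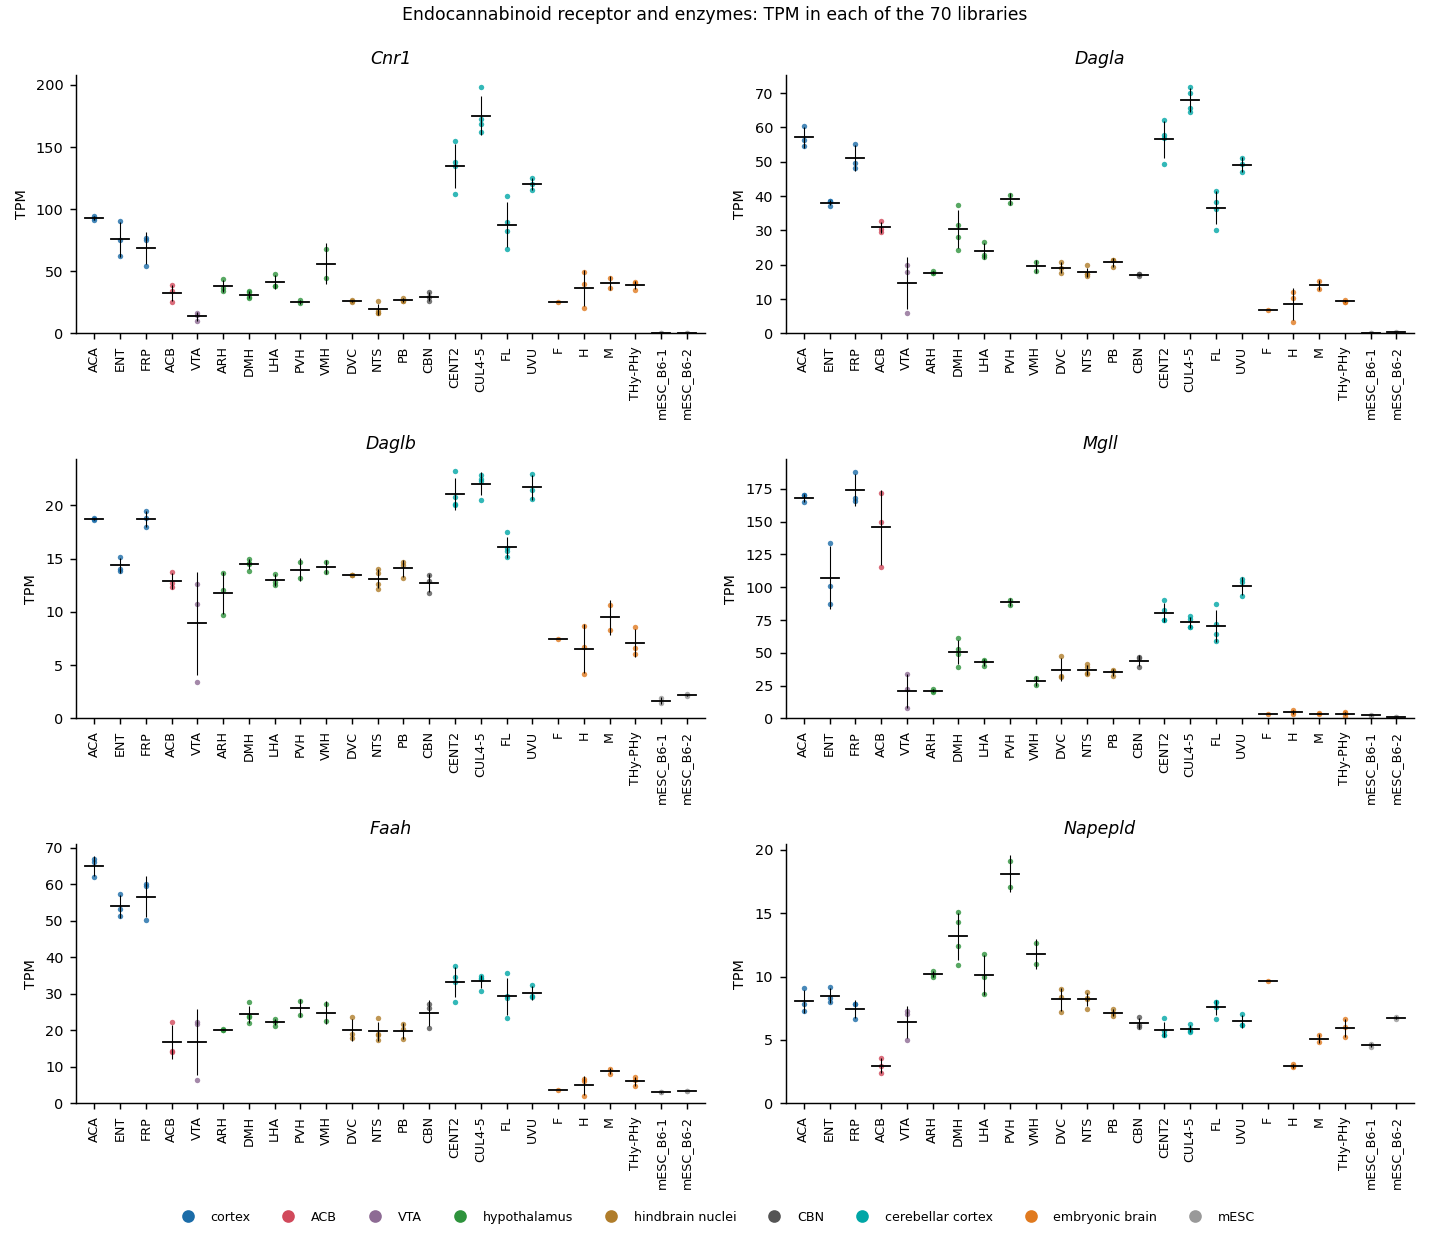
TPM of each of the 6 genes in each of the 70 libraries, by group. Points are libraries, horizontal bars are group means and vertical lines are ± 1 SD where a group has more than 1 library. Cnr1 peaks in CUL4-5 at 175, Mgll in FRP at 174 and Napepld in PVH at 18.1.

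Across the 18 adult regions, means of log2(TPM + 1) of Cnr1, Dagla and Daglb ran alike, and Napepld correlated with none of the others beyond an absolute r of 0.273. Pearson's r was 0.889 for Cnr1 with Daglb, 0.883 for Dagla with Daglb, 0.833 for Cnr1 with Dagla and 0.830 for Dagla with Mgll. For Cnr1 with Mgll it was 0.559. Faah had 0.685 with Cnr1, 0.740 with Dagla, 0.655 with Daglb and 0.711 with Mgll. For Napepld with the other genes r lay between -0.273 and 0.0653. Without the 4 regions of the cerebellar cortex, over 14 regions, the values were 0.771, 0.809, 0.707, 0.920 and 0.606 for the first 5 pairs. Faah then had 0.844 with Cnr1, 0.813 with Dagla, 0.786 with Daglb and 0.706 with Mgll. These are descriptions over regions that share mice and library preparation, and neighbouring regions are not independent points.

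**Figure D3:**
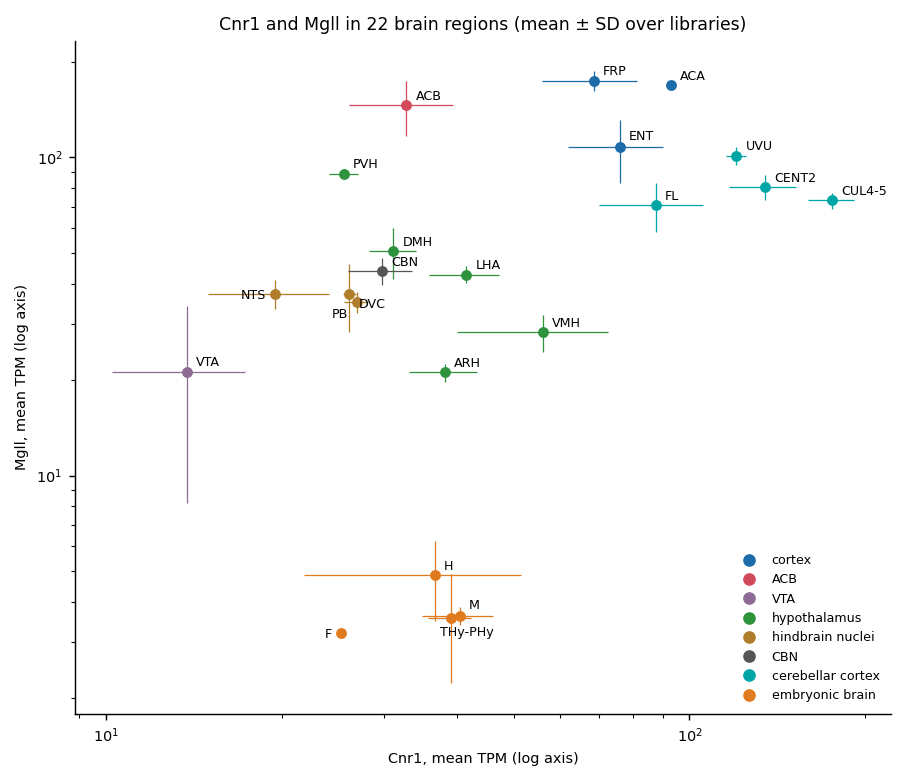
Mean TPM of Cnr1 (horizontal, log axis) against mean TPM of Mgll (vertical, log axis) in 22 brain regions, with ± 1 SD over libraries. The cerebellar cortex lies to the right at Cnr1 means of up to 175, ACB lies high at an Mgll mean of 146, and the 4 embryonic regions lie at the bottom.

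Differences between regions were tested on the estimated counts with edgeR's quasi-likelihood test, with Benjamini-Hochberg adjustment over the 19980 genes tested. A gene was called where the adjusted p was under 0.05 and the absolute log2 fold change above 1. Each region had the same weight within a mean of regions. Where libraries of groups are said not to overlap, the share of all genes that separate in this way is not given here. The comparisons with the other adult regions share most of their libraries with each other, so they are not independent.

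In the cerebral cortex (ACA, FRP and ENT) both degrading enzymes were higher than in the other adult regions. Over the 9 cortical libraries Mgll had a lowest TPM of 87.3, a median of 166 and a highest of 188, against 7.61, 47.0 and 172 over the other 48 adult libraries. The groups overlapped for Mgll, with ENT at the low end of the cortex. Faah ran from 50.1 to 66.9 with a median of 59.5, against 6.44 to 37.6 with a median of 23.4, so every cortical library lay above every other adult library. Mgll was higher by 1.67 ± 0.07 (log2, SE; adjusted p = 1.02e-27) and Faah by 1.38 ± 0.06 (adjusted p = 3.92e-26). These were 2 of 6 genes called, where 16.1% of all genes tested were called in either direction. Cnr1 (0.97 ± 0.07, adjusted p = 7.08e-18), Dagla (0.92 ± 0.07, 8.52e-18) and Daglb (0.36 ± 0.04, 5.66e-10) passed the adjusted p and not the fold, and Napepld passed neither (0.13 ± 0.06, adjusted p = 0.0681). Without FRP 3, which had the lowest cortical Cnr1 at 53.9 TPM, the Cnr1 value was 1.03 and was called. GABA neuron markers summed to 900 TPM in FRP 3 and to 559 and 344 in the other FRP libraries, and their part in this value was not tested. Beside Faah and Mgll, the summed glutamate neuron markers were also highest in the cortex. Over the 18 adult regions their level had a Pearson's r of 0.936 with Faah and 0.832 with Mgll, and their part in the result was not tested.

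In ACB, the ventral striatal region of the reward circuit, Mgll was high and Napepld low. Mgll had 115, 172 and 149 TPM in the 3 libraries, against a median of 55.9 over the other 54 adult libraries and a highest value of 188. ACB libraries thus lay within the cortical range. Napepld had 2.97, 2.36 and 3.57 TPM, and all 3 lay below the lowest other adult library at 4.98. Mgll was higher by 1.35 ± 0.11 (adjusted p = 1.92e-15) and Napepld lower, with a log2 fold change of -1.4997 ± 0.12 (adjusted p = 1.02e-15). Of all genes, 12.8% were called. Cnr1 (25.5, 34.0 and 38.6 TPM) had -0.59 ± 0.13 (adjusted p = 0.000168) and Faah (14.3, 14.1 and 22.3 TPM) had -0.80 ± 0.12 (2.04e-07). Without ACB 3, the highest for Faah, that value was -1.03 and was called. Dagla, at 30.4, 32.7 and 29.7 TPM, had 0.04 ± 0.12 (adjusted p = 0.84). Without ACB 1, the library low in glutamate neuron markers, Mgll had 1.49, Napepld -1.5006 and Cnr1 -0.43. With any 1 adult library left out, Mgll ran from 1.18 to 1.49, Napepld from -1.64 to -1.38 and Cnr1 from -0.72 to -0.43. The part of the glutamate neuron markers in these values was not tested.

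In VTA, the midbrain region of dopamine neurons, Cnr1 and Mgll were low. Cnr1 had 9.81, 16.5 and 14.9 TPM, below the 16.7 of the lowest other adult library. Mgll had 7.61, 33.5 and 22.5 TPM, against a median of 66.9 elsewhere, and overlapped other regions from 20.1 upward. In TPM, which counts mitochondrial transcripts in the total, VTA 1 was the lowest of the 3 for every one of the 6 genes. VTA 1 is the library with a high mitochondrial share. With mitochondrial genes left out of TPM, its Cnr1 was 16.2, against 17.6 in VTA 2 and 17.4 in VTA 3. Cnr1 differed by -1.36 ± 0.14 (adjusted p = 1.95e-11) and Mgll by -1.24 ± 0.14 (4.62e-10), where 10.5% of all genes were called. Without VTA 1 the Cnr1 value was -1.47, while Mgll was -0.996 and no longer called. Dagla (-0.71 ± 0.12, adjusted p = 5.72e-06), Daglb (-0.40 ± 0.08, 3.59e-05) and Faah (-0.29 ± 0.11, 0.0375) were lower by less than the fold required, and without VTA 1 they had -0.52, -0.19 and -0.08, the last with an adjusted p of 0.67. Napepld had 4.98, 7.02 and 7.25 TPM and did not pass (0.21 ± 0.10, adjusted p = 0.0858), with 0.045 without VTA 1. GABA neuron markers summed to 133 TPM in VTA 1 and 511 to 595 in the other VTA libraries, and their part in these values was not tested.

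Over the 5 hypothalamic regions no gene of the 6 passed the fold, while 8.84% of all genes tested did. All 6 passed the adjusted p alone, as did 51.3% of all genes, with Napepld in the opposite direction to the rest. Napepld ran from 8.66 to 19.2 TPM with a median of 11.4 over 14 hypothalamic libraries, against 2.36 to 9.16 with a median of 7.09 over 43 others, so the groups overlapped only between 8.66 and 9.16. Its log2 fold change was 0.79 ± 0.05 (adjusted p = 2.77e-19). Mgll had -0.83 ± 0.07 (1.17e-14), Cnr1 -0.59 ± 0.07 (9.83e-11), Dagla -0.46 ± 0.06 (1.52e-08), Faah -0.44 ± 0.06 (2.3e-08) and Daglb -0.30 ± 0.04 (7.84e-09).

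Within the hypothalamus the nuclei differed most in Mgll, the 2-AG hydrolase. In ARH, the nucleus of the Agrp and Pomc neurons that control feeding, Mgll had 22.7, 20.1 and 20.5 TPM, below all 11 libraries of the other hypothalamic regions, which started at 25.5 and had a median of 44.7. The fold change was -1.25 ± 0.15 (log2; adjusted p = 6.23e-09), the only call of the 6 where 6.9% of genes were called. Dagla (17.5, 17.5 and 18.1 TPM) and Faah (20.1, 19.99 and 20.4 TPM) also lay below every other hypothalamic library, with -0.70 ± 0.14 (adjusted p = 5.78e-05) and -0.36 ± 0.13 (0.0315). Napepld had -0.42 ± 0.11 (0.00319) and Daglb -0.30 ± 0.08 (0.00562), with overlapping libraries. Cnr1, with 36.7, 33.9 and 43.9 TPM, lay within the range of the other nuclei and did not pass. The pituitary marker list summed to 68.9 to 105 TPM in ARH, and its part in these values was not tested.

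PVH, the nucleus of the oxytocin neurons, showed high levels of 3 enzymes and a low level of the receptor. Mgll had 86.8 and 90.7 TPM, above the 20.1 to 61.3 of the other 12 hypothalamic libraries. Dagla had 40.3 and 37.9, above a highest value of 37.5 elsewhere, and Napepld had 19.2 and 17.1, above 15.1. Cnr1 had 24.5 and 26.6 TPM, below the lowest other value of 28.3. Groups did not overlap for any of these 4 genes, with 2 PVH libraries, a separation whose share over all genes is not given here. Mgll was called (1.41 ± 0.15, adjusted p = 2.41e-10), where 2.03% of all genes were called. Dagla (0.83 ± 0.14, 2.84e-05), Napepld (0.72 ± 0.12, 1.89e-05) and Cnr1 (-0.65 ± 0.17, 0.00835) passed the adjusted p alone, as 5.99% of all genes did.

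VMH had no call, where 1.47% of genes were called. Its Cnr1 values were 67.7 and 44.7 TPM, against 24.5 to 48.0 elsewhere in the hypothalamus, and its Mgll values were 30.9 and 25.5, against 20.1 to 90.7. One VMH library therefore lay above the other nuclei for Cnr1 and one among them. Cnr1 had 0.71 ± 0.15 (adjusted p = 0.00177) and Mgll -0.69 ± 0.17 (0.0118). The Cnr1 value was 1.003 and called without VMH 2, and 0.36 without VMH 1. DMH and LHA had no call and no adjusted p under 0.05 among the 6 genes, where 0.601% and 5.05% of all genes were called.

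The hindbrain nuclei (DVC, NTS and PB) were low in Cnr1. Over 10 libraries Cnr1 ran from 16.7 to 28.3 TPM with a median of 25.9, against 9.81 to 198 with a median of 62.3 over 47 other adult libraries. Most of the other libraries were higher, and VTA lay below. Cnr1 was the 1 gene called (-1.15 ± 0.08, adjusted p = 6.84e-18), where 7.84% of all genes were. Mgll (-0.83 ± 0.08, 5.14e-13), Dagla (-0.75 ± 0.07, 8.8e-13), Faah (-0.46 ± 0.07, 1.19e-07) and Daglb (-0.12 ± 0.04, 0.0214) were lower by less, and Napepld, with 6.88 to 9.01 TPM, did not pass.

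In the cerebellar cortex Cnr1 was the only one of the 6 genes called, where 18% of all genes were. Over 15 libraries it ran from 67.7 to 198 TPM with a median of 125, against 9.81 to 94.5 with a median of 33.4 over 42 other adult libraries. The FL libraries (110, 89.996, 82.6 and 67.7 TPM) overlapped the cerebral cortex, and those of CENT2 (112, 134, 138 and 155), CUL4-5 (162, 172, 198 and 169) and UVU (116, 125 and 120) lay above every adult library outside the cerebellar cortex. The log2 fold change was 1.63 ± 0.06 (adjusted p = 2.01e-30). Dagla (0.84 ± 0.06, 6.97e-19), Daglb (0.40 ± 0.04, 6.17e-14) and Mgll (0.37 ± 0.06, 9.84e-07) were higher by less, and Napepld was lower (-0.55 ± 0.05, 1.79e-13). Faah, at 23.3 to 37.6 TPM, did not pass. The summed Purkinje cell markers ran from 1291 to 3833 TPM in these libraries. Over the 18 adult regions Cnr1 had a Pearson's r of 0.764 with that list and of 0.766 with the granule cell list, and the part of either in the result was not tested.

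The cerebellar nuclei, the output stage under that cortex, had much less Cnr1 and Dagla. Cnr1 had 29.6, 26.0 and 33.5 TPM and Dagla 17.3, 16.8 and 17.2, below the lowest cortical values of 67.7 and 30.2. Daglb (11.8, 13.5 and 12.9) and Mgll (46.6, 39.0 and 46.3) also lay below every library of the cerebellar cortex, which started at 15.2 and 58.7. Cnr1 (-1.91 ± 0.15, adjusted p = 1.83e-15) and Dagla (-1.38 ± 0.14, 3.27e-12) were called, where 16.5% of all genes were. Mgll (-0.63 ± 0.14, 0.00016) and Daglb (-0.45 ± 0.08, 7.46e-06) passed the adjusted p alone, and Faah and Napepld did not pass. CBN libraries also held 3495 to 12520 TPM of the choroid plexus markers Ttr, Folr1 and Kl, and their part in these values was not tested.

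In both embryonic regions fitted against adult tissue, hypothalamus and hindbrain, the embryo had less of all 5 enzyme transcripts, and Cnr1 was not lower. F and M were not fitted against adult tissue. In F, with 1 library, Cnr1 was 25.3 TPM, below the means of 32.7 in ACB and 68.6 to 93.0 in the cortical regions. Napepld in F was 9.67 TPM, above the means of the adult regions outside the hypothalamus. In M, Cnr1 averaged 40.4 TPM, above 13.8 in VTA. These differences of F and M were not tested. In THy-PHy, the embryonic hypothalamus, Mgll had 4.73, 2.10 and 3.90 TPM, against 20.1 to 90.7 with a median of 41.8 over 14 adult hypothalamic libraries. Faah had 7.16, 4.75 and 6.35 against 19.99 to 27.9, and Dagla had 9.24, 9.11 and 9.67 against 17.5 to 40.3. Daglb had 8.57, 6.64 and 6.05 against 9.73 to 14.99, and Napepld had 5.99, 6.62 and 5.25 against 8.66 to 19.2. For each of these 5 enzymes every embryonic library lay below every adult one, a separation whose share over all genes is not given here. Cnr1, in contrast, had 41.5, 40.2 and 35.2 TPM, within the adult range of 24.5 to 67.7.

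The fold changes of THy-PHy against the adult hypothalamus were -3.67 ± 0.19 for Mgll (log2; adjusted p = 8.12e-24), -1.84 ± 0.14 for Faah (1.19e-16), -1.37 ± 0.14 for Dagla (1.53e-12), -1.02 ± 0.09 for Daglb (6.18e-15) and -1.02 ± 0.11 for Napepld (3.01e-11). All 5 were called, where 38.2% of all genes were called in either direction and 20% as lower. Cnr1 had 0.11 ± 0.13 (adjusted p = 0.482). Daglb and Napepld lie at the fold threshold. Daglb had -0.97 without ARH 1, -0.98 without ARH 3, -0.96 without THy-PHy 2 and -0.98 without VMH 2, and was then not called. Napepld was not called without ARH 1, ARH 2 or ARH 3 (-0.984 to -0.999), nor without THy-PHy 1 (-0.94) or THy-PHy 3 (-0.99).

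In the hindbrain all 5 enzymes were lower in the embryo as well. In H, Mgll had 3.47, 4.91 and 6.22 TPM against 31.8 to 47.5 over 10 adult hindbrain libraries, and Faah had 1.89, 6.05 and 6.74 against 17.4 to 23.6. Dagla had 3.24, 10.5 and 12.2 against 16.9 to 21.5, Daglb had 4.15, 6.70 and 8.72 against 12.2 to 14.7, and Napepld had 2.83, 3.10 and 2.92 against 6.88 to 9.01. No embryonic library reached the adult range for any of these 5 genes, a separation whose share over all genes is not given here. In TPM, of which mitochondrial transcripts took 22.6% in H 1, H 1 was the lowest of the 3 for all 5 enzymes. Cnr1 had 20.5, 40.0 and 49.4 TPM against 16.7 to 28.3, so H 2 and H 3 lay above the adult libraries and H 1 among them. The fold changes were -2.80 ± 0.18 for Mgll (adjusted p = 5.07e-20), -1.89 ± 0.15 for Faah (1.58e-16), -1.32 ± 0.13 for Napepld (1.47e-13), -1.18 ± 0.09 for Daglb (1.32e-16) and -1.11 ± 0.14 for Dagla (1.04e-09). All 5 were called, where 44% of all genes were called in either direction and 21.1% as lower. Cnr1 passed the adjusted p alone (0.67 ± 0.13, 1.23e-05). Without H 1 the values were -2.78 for Mgll, -1.68 for Faah, -1.45 for Napepld, -1.11 for Daglb and 0.85 for Cnr1, while Dagla had -0.82 and was no longer called. The summed neuron markers ran from 418 to 1277 TPM in embryonic and from 1370 to 4836 TPM in adult libraries, and their part in the stage differences was not tested.

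**Figure D4:**
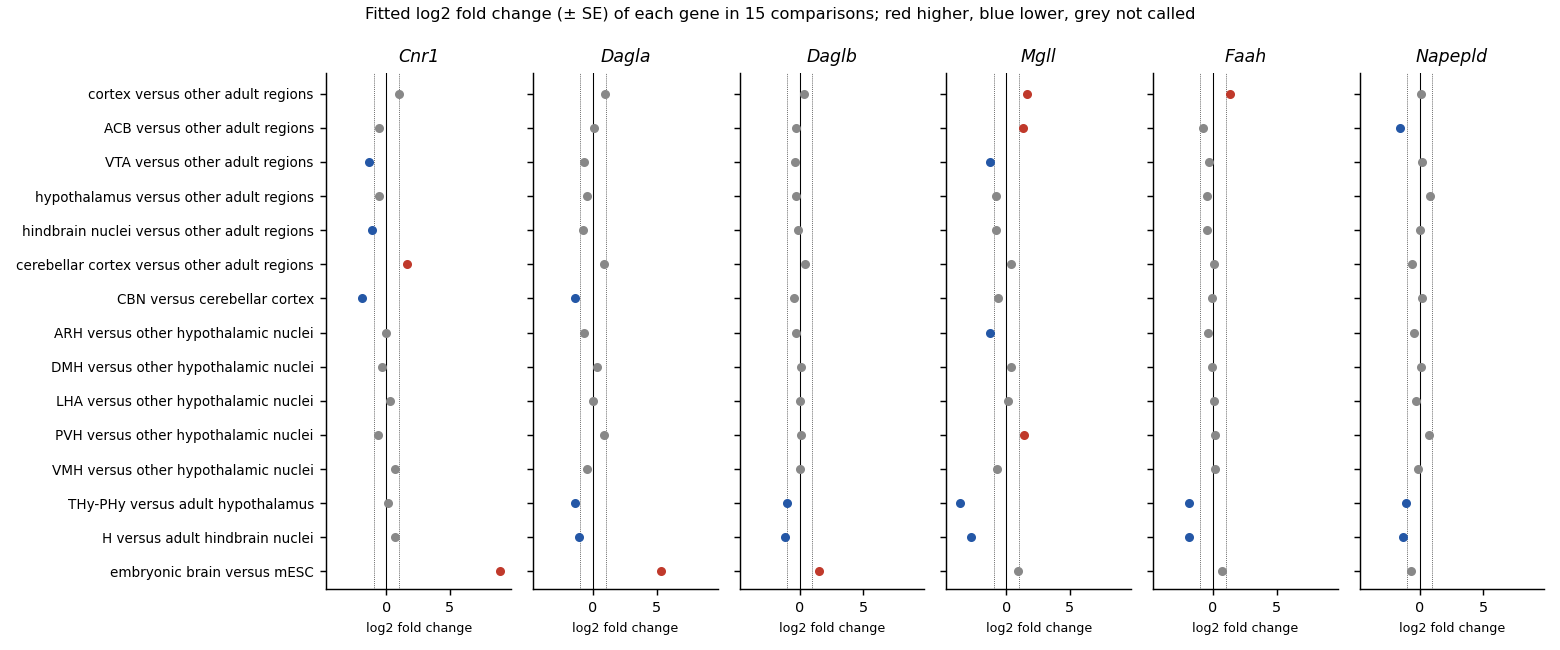
Fitted log2 fold change of each gene in the 15 comparisons, with bars of ± 1 SE and dotted lines at the fold threshold of 1. Red points were called higher, blue points lower and grey points were not called. All 5 enzymes are blue in both stage comparisons while Cnr1 is grey, with 0.11 in THy-PHy and 0.67 in H.

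Because TPM is divided by length, enzymes were also set against each other within a library, as log2 ratios of TPM + 0.5. The means of the 4 embryonic and the 18 adult regions were compared by an exact permutation test over the 7315 ways to choose 4 of 22 regions. It was two-sided and adjusted over 3 ratios. F counted as 1 of the 4 embryonic regions, with its 1 library. The ratio of Mgll to Dagla, breakdown to synthesis of 2-AG, averaged -1.19 ± 0.51 (SD, n = 4) in embryonic and 0.97 ± 0.54 (n = 18) in adult regions, a difference of -2.16 (exact permutation p = 0.000273, adjusted 0.00082). The ratio of Faah to Napepld averaged -0.01 ± 0.89 and 1.72 ± 0.75, a difference of -1.73 (exact permutation p = 0.000547, adjusted 0.00082). The ratio of Dagla to Daglb averaged 0.27 ± 0.28 and 0.99 ± 0.44, a difference of -0.72 (exact permutation p = 0.00328, adjusted 0.00328). Without F the differences were -2.23, -1.30 and -0.59 and passed the same threshold. For Mgll to Dagla every embryonic region lay below every adult one. For the other ratios the regions overlapped, since M had 0.55 for Dagla to Daglb, above CBN at 0.41, and 0.73 for Faah to Napepld, above PVH at 0.51. Cortex, ACB and cerebellum were in the adult set and were not matched to an embryonic region, so these differences mix region with stage. For Dagla to Daglb, H had 0.25, against 0.49 in DVC, 0.43 in NTS and 0.54 in PB. THy-PHy had 0.39, against 0.44 in VMH to 1.45 in PVH. Regions share animals and are not independent, so these p-values may be too small.

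**Figure D5:**
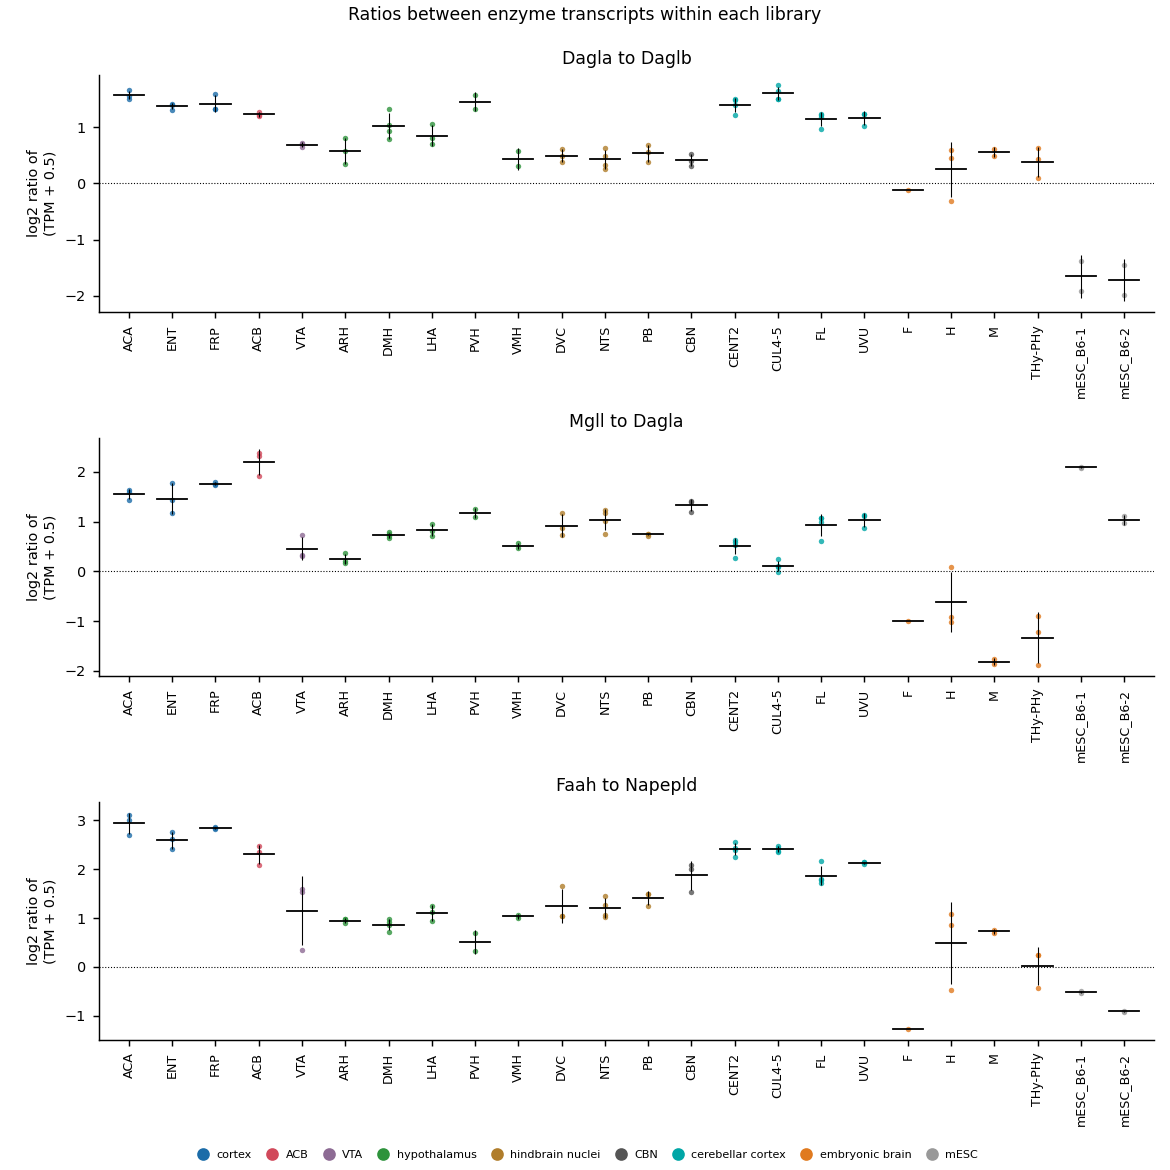
Log2 ratio of TPM + 0.5 between enzyme transcripts within each library, by group. Points are libraries, bars are means and vertical lines are ± 1 SD. The Mgll to Dagla ratio averages -1.19 over embryonic and 0.97 over adult regions.

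The ratio of Mgll to Cnr1 was looked at after the values were seen and is given with no test. Its group mean was lowest among adult regions in CUL4-5 at -1.25 and highest in ACB at 2.14, followed by PVH at 1.78 and FRP at 1.35. Embryonic regions lay between -3.33 and -2.73, below every adult region.

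In mESCs, which are not neural, Cnr1 and Dagla were close to absent. Cnr1 had 0.0942 and 0.0418 TPM in B6-1 and 0.0554 and 0.0387 TPM in B6-2, from 2 to 7 estimated counts per library, about the level of 3 counts, which is 0.0529 to 0.0754 TPM here. Dagla had 0.125, 0.230, 0.449 and 0.200 TPM from 9 to 16 counts, and Daglb had 1.87, 1.40, 2.10 and 2.29 TPM. Every library of H, M and THy-PHy lay above every mESC library for these 3 genes, with lowest values of 20.5, 3.24 and 4.15 TPM. The fitted log2 fold changes were 8.93 ± 0.25 for Cnr1 (adjusted p = 2.02e-35), 5.33 ± 0.20 for Dagla (8.62e-30) and 1.52 ± 0.09 for Daglb (2.32e-21). The Cnr1 fold rests on a few counts and is not a bound. These 3 genes were called, where 58% of all genes were.

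The degrading enzymes and Napepld were present in mESCs, with Mgll and Faah below most embryonic brain libraries. Mgll had 2.14, 2.64, 1.35 and 1.01 TPM, Faah 2.95, 3.20, 3.44 and 3.28 TPM, and Napepld 4.46, 4.70, 6.85 and 6.65 TPM, which made Napepld the highest of the 6 in both lines. The libraries of H, M and THy-PHy ran from 2.10 to 6.22 for Mgll, 1.89 to 9.45 for Faah and 2.83 to 6.62 for Napepld. For Mgll only THy-PHy 2, at 2.10, did not lie above every mESC library. For Faah only H 1, at 1.89, did not, and H 1 has a low total and a high mitochondrial share. Napepld overlapped more widely. Mgll (0.96 ± 0.18, adjusted p = 3.18e-06) and Faah (0.75 ± 0.14, 2.33e-06) were higher in these embryonic regions and Napepld lower (-0.67 ± 0.10, 8.83e-08), all under the fold required. Mgll was called without M 1 (1.01), THy-PHy 2 (1.06) or the first B6-2 library (1.01). The share of Dagla in the summed Dagla and Daglb TPM was 6.27% to 17.6% in mESCs and 43.9% to 61.5% in embryonic libraries. RNA of mESCs was extracted with another kit than brain RNA, and mESCs were grown with added inhibitors. Tissue, kit and culture therefore cannot be told apart.

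Of 32 further genes of the pathway, fixed as a list, 31 were tested and Gpr119 was too low. In cortex 6 of 31 were called higher and 2 lower, where 8.17% and 7.95% of all genes were, with a median log2 fold change of 0.46 against -0.03 over all genes. They included Chrm1 (5.60), a muscarinic receptor that drives 2-AG synthesis, the prostaglandin synthase Ptgs2 (4.00), which can oxygenate 2-AG, Ptpn22 (-1.97), a phosphatase, and the receptor partner Cnrip1 (1.11). ACB had 5 higher and 3 lower, where 7.3% and 5.49% of all genes were, among them Chrm1 (4.53), the phospholipase Plcb4 (-2.60) and the lysolipid receptor Gpr55 (2.48). VTA had 1 higher, the capsaicin receptor Trpv1 (2.02) at a mean of only 0.209 TPM, and 2 lower, Chrm1 (-1.53) and Ptpn22 (-1.21), where 6.89% and 3.65% of all genes were. The second cannabinoid receptor Cnr2 averaged at most 0.21 TPM in every brain group.

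The hypothalamus had 1 of 31 higher, the glutamate receptor Grm5 (1.16), and 2 lower, Ptpn22 (-2.06) and Ptgs2 (-1.28), where 6.11% and 2.74% of all genes were. The hindbrain nuclei had 0 higher and 3 lower, namely Chrm1 (-2.28), Gpr55 (-1.70) and Ptgs2 (-1.34), where 5.17% and 2.67% of all genes were. In the cerebellar cortex 5 were higher and 4 lower, where 8.21% and 9.75% of all genes were. The higher ones included Ptpn22 (5.199) and Plcb4 (1.57), and the lower ones Chrm1 (-3.80) and Grm5 (-3.14). CBN had 4 higher and 4 lower against that cortex, where 11% and 5.47% of all genes were, among them Ptpn22 (-2.76), Grm5 (1.68) and the phospholipase Plcb2 (1.53). ARH had only Chrm1 (1.07) higher, where 4.71% of all genes were higher and 2.19% lower. DMH had only Trpv1 (3.02, at a mean of 0.793 TPM), where 0.445% were higher and 0.155% lower, and PVH only Plcb4 (1.01), where 1.42% were higher and 0.616% lower. LHA had Ptgs2 (1.84) higher and Gpr55 (-1.56) lower, where 2.32% and 2.73% of all genes were, and VMH had none, where 0.791% and 0.681% were.

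Between stages more listed genes were lower in the embryo than higher. In THy-PHy 4 were higher and 15 lower than in the adult hypothalamus, where 18.2% and 20% of all genes were, with a median of -0.85 against 0.00 over all genes. In H 3 were higher and 8 lower, where 23% and 21.1% of all genes were, with a median of -0.28 against 0.02. The 2-AG hydrolases other than Mgll were lower in both, with Abhd12 at -2.26 and -2.83 and Abhd6 at -1.36 and -1.78. Chrm1 had -2.65 in THy-PHy. Ptgs2, called lower in THy-PHy, had 0 counts in all 3 libraries and is given no fold. Fabp7, the fatty acid binding protein of radial glia, was higher in both, by 2.48 and 3.30. Against mESCs 18 listed genes were higher in the embryonic brain and 4 lower, where 30.5% and 27.5% of all genes were, led by Fabp7, the G protein Gnao1 (8.52) and Cnrip1. Fabp7 had 0 or 1 counts and Cnrip1 1 to 4 counts in each mESC library, so no fold is given for them.

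Mgll transcripts made up a varying part of the 2-AG hydrolase transcripts. The share of Mgll in the summed Mgll, Abhd6 and Abhd12 TPM was computed after the values were seen and has no test. It ran from 7.48% to 35.8% in adult libraries, with means of 33.8% ± 1.59 (SD, n = 3) in FRP, 31.9% ± 0.939 in ACA and 31.4% ± 4.05 in ACB, and of 8.29% ± 0.580 in ARH and 8.45% ± 1.36 in VTA (8.93% without VTA 1). In embryonic libraries it ran from 3.29% to 10.5%. These shares are of transcripts and not of enzyme activity.

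The genes most like each member over the 18 adult regions were sought among 17955 genes by Pearson's r of log2 mean TPM + 1. Cnr1 was most like Rims4 (0.976), Nptx1 (0.950), Mamld1 (0.949), Chrd (0.941) and Thpo (0.941). Dagla was most like Wnk2 (0.965), Kcnma1 (0.956), Grk5 (0.953), Frrs1l (0.950) and Elmo2 (0.949), and Daglb most like Fbxo45 (0.966), Napa (0.963), Rhebl1 (0.962), Spire1 (0.961) and Klhdc3 (0.955). Mgll was most like Ppp2r2c (0.953), Hivep2 (0.936), Mllt1 (0.933), Prkcb (0.931) and R3hdm4 (0.930). Faah was most like Olfm1 (0.966), Rtn4r (0.944), Apba2 (0.941), Hkdc1 (0.926) and Btbd10 (0.921). Napepld had no gene as close, with Arsa (0.884), Ccdc136 (0.855), Tspan33 (0.852), Fam214b (0.849) and Rhbdd3 (0.835). By Spearman's rho, 0 to 2 of each 5 genes were the same, so these lists depend on the measure.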

How the data were processed

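Poly(A) RNA of 70 libraries was sequenced as short single reads and converted with CASAVA 1.8.2, per the submitters' processing notes. The authors ran kallisto against GRCm38 cDNA and deposited estimated counts per transcript, unscaled across libraries. Their deposited TPM were scaled inside each library and added up by gene. Here 107987 of 109282 transcripts (98.8%) were assigned to genes with GENCODE M21. The estimated counts were added up by gene, then rounded, and 0.418% to 0.767% of counts stayed unassigned. The TPM of members and listed genes was the same from both tables.

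Groups were taken from the labels. One edgeR 4.0.16 fit (R 4.3.3, TMM scaling, its default expression filter, quasi-likelihood test) held all 24 groups and gave 15 contrasts. Calls required both an adjusted p under 0.05 and a log2 fold change beyond 1 in either direction. DESeq2 1.42.0, limma 3.58.1 on log2(TPM + 0.5), no filter, a replicate block and leaving out each library were alternatives. Fits without 1 library used 2032 genes, with every 10th gene beside the members and the list. Ratios and figures were made in Python 3.11.15 (SciPy 1.17.1; NumPy 2.4.6; matplotlib 3.10.9; pandas 2.3.3). Named genes were the 6 members, up to 3 listed genes per contrast with the largest called change or in a member's family, and the 5 most alike; values of 1 listed gene are not reported here. The members and lists were chosen with earlier results of these data known. Replicate pairs differed by more than counting noise, the smallest chi-square per gene being 2.59, and their numbers did not pair libraries. The fits were tested on simulated counts.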

Additional observations from a re-analysis of the deposited data

Results flagged for a closer look

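In NTS, Dagla was 19.9 TPM in NTS 4 and 16.9 to 17.3 TPM in the other 3 libraries, and the gap to NTS 4 took up most of the range. Of 30 sets of 4 libraries tested in this way this was the only 1 to stand apart, where chance gives about 1 in 20.

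The stage difference was not the same in both regions for Cnr1 and Mgll. For Cnr1 the log2 fold change of THy-PHy against the adult hypothalamus was lower than that of H against the adult hindbrain nuclei, by -0.56 (interaction in edgeR, adjusted p = 0.0208). For Mgll the same difference was -0.87 (adjusted p = 0.00265), so the deficit against the adult was larger in the hypothalamus. Of all 19980 genes, 6084 had an adjusted p under 0.05 for this interaction, so passing it does not set Cnr1 and Mgll apart from other genes. Without H 1, which has a low total and a high mitochondrial share, the differences were -0.74 for Cnr1 (adjusted p = 0.00397) and -0.89 for Mgll (0.00618) in edgeR. Dagla then also passed (-0.56, adjusted p = 0.00584), having had -0.27 with H 1 (0.294). These values were chosen after seeing the data.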

How the results depend on the processing

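Of 530 values recomputed under another test, scaling, filter or pseudocount, 512 kept their direction and side of the threshold, and of 2416 with 1 library left out 2398 did. Napepld in VTA turned from 0.21 to -0.32, -0.33 and -0.32 (no filter) with limma on TPM and to -0.11 without mitochondrial genes, while the limma median of all genes there was -0.39. Dagla in ACB, not called, ran from -0.026 (without ACB 2) to 0.086 with 1 library left out. With 1 library left out, members called ran from 1 to 2 in VTA, 0 to 1 in VMH and 3 to 5 in THy-PHy. As CPM, not divided by length, the highest adult mean over the median region was 2.09 for Dagla, 1.44 for Daglb and 2.36 for Faah, against 2.22, 1.56 and 2.62 in TPM. In VTA 1376 genes were called higher and 729 lower with edgeR, and 348 and 1898 with limma. In CBN these were 2203 and 1092 against 1016 and 1303, and in LHA 463 and 546 against 263 and 505. Same-numbered libraries did not deviate together (median r 0.00781, and 35 of 69 closest to their own number), so the replicate block was only an alternative. It stands for neither collection batch nor shared mice, which the labels do not map to libraries. With it 5 members were called in THy-PHy and 2 in VTA, as without it. The cause of these changes was not tested. Depth limits Cnr1 and Dagla in mESCs, which had 16 counts or fewer per library.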
